A study of Homo sapiens with 6 samples.

Results

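The 14-3-3 family of adaptor proteins was described here in SKOV3 cells, a human ovarian cancer cell line, after knockdown of the translation factor EIF5A2. The members were the rows of the gene table whose identifier belongs to YWHAB, YWHAE, YWHAG, YWHAH, YWHAQ, YWHAZ or SFN, which encode the beta, epsilon, gamma, eta, theta, zeta and sigma proteins. All 7 were found among the 58825 gene identifiers of the table, and all 7 passed the filter on low counts. The rule for members uses gene names and no measured value, and the family was chosen with earlier results of these data known. In the main result, YWHAH was downregulated to 36.4% of its control level while YWHAG, the member with the most similar coding sequence, was upregulated 1.86-fold. The other 5 members did not pass the test, which 24.6% of all genes tested passed.

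14-3-3 proteins work as dimers that hold other proteins, called clients, at short stretches around a phosphorylated serine or threonine. Binding can keep a client in the cytoplasm, block or stabilize its active form, or shield the phosphate, so that kinases which write these sites act through 14-3-3 proteins. The dimers are homodimers or mixed pairs, epsilon and gamma are known to prefer mixed pairs, and sigma mostly pairs with itself. In the cell cycle the family is best known for holding CDC25 phosphatases after DNA damage, and in growth signaling for holding RAF kinases.

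RNA was taken 48 h after transfection of the cells with a control siRNA without a target (NC) or an siRNA against EIF5A2 (si-EIF5A2), with 3 libraries per group. Both groups came from the same line and both received an siRNA, and the knockdown rests on 1 siRNA duplex. The study asked how EIF5A2 acts on stem-like properties of ovarian cancer cells, and the RNA-seq was its search for affected genes. Nothing in the labels says that the 3 libraries of a group came from separate cultures, so the p-values measure the spread between these libraries, which may be technical.

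The libraries held 46900204 to 74142267 estimated counts, and low counts piled up at multiples of about 3.86, so 1 fragment appears to be worth several deposited counts. Levels are given as CPM, counts per 1000000 counts of the library, scaled with TMM factors of 0.985 to 1.01. EIF5A2 itself was at 27.8, 29.8 and 29.9 CPM under the control siRNA and at 2.76, 4.04 and 4.27 CPM after knockdown. Its log2 fold change was -2.98 ± 0.18 (SE, n = 3 per group), with a p of 1.6e-05 in the quasi-likelihood test of edgeR after Benjamini-Hochberg adjustment. Calls required this adjusted p to be under 0.05 and the fold change over 1.5, which 24.6% of the 16208 genes tested reached, 13.6% lower and 11.1% higher after knockdown. Among 9 markers of epithelial ovarian carcinoma cells, the keratins KRT7, KRT8 and KRT18 and the Müllerian factor PAX8 stood at 382, 608, 418 and 106 CPM in the NC group. ERBB2 and the keratin KRT19 were lower there, at 45.9 and 3.22 CPM. Per kilobase of exon these 2 were at the percentiles 60.1 and 37.3 among 16176 genes. MUC16, the CA125 antigen, had 0 counts in all libraries, which allows up to 0.247 CPM in the shallowest one. EPCAM and CDH1 stood at 1.55 and 0.663 CPM in the NC group, the percentiles 25.4 and 5.98 per kilobase of exon. These 9 markers ran from undetected to high, and the name of the line comes from the study. Of 10 markers of other cell types, PTPRC and CD3E of leukocytes were at 0 counts in every library, and 4 could be tested and were not called. Their summed level was 42.8 to 60.9 CPM in the NC group and 29.8 to 59.1 CPM after knockdown, nearly all of it CD68, a lysosomal protein of macrophages and other cells, with means of 46.3 ± 9.57 and 39.1 ± 14.3 CPM (SD, n = 3). CD68 shares 81.7% of its exon bases with another gene on the same strand. The endothelial marker PECAM1 stood at 1.62 to 2.04 CPM and at 0 to 0.667 CPM, and the others were at 1.98 CPM or less in every library. The part of these markers in the results was not tested.

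YWHAH, the gene of 14-3-3 eta, was the 1 member called lower. Its identifier is ENSG00000128245, and the 2 exons of its longest coding transcript are on chromosome 22, where the gene spans bases 31944461 to 31957603 on the plus strand (GRCh38). The NC libraries held 101, 105 and 105 CPM of YWHAH and the si-EIF5A2 libraries 39.6, 35.8 and 37.9 CPM. All si-EIF5A2 libraries lay far below all NC libraries, and the spread within each group was small. The means were 104 ± 2.25 CPM and 37.8 ± 1.88 CPM (SD, n = 3), a log2 fold change of -1.46 ± 0.08 (SE) with a 95% interval from -1.64 to -1.28 and an adjusted p of 9.86e-06 in edgeR's test. That is 2.75-fold lower. YWHAH was called in all 16 alternative fits, and leaving out 1 library at a time gave log2 fold changes between -1.50 and -1.42. The paper lists qRT-PCR primers for YWHAH beside those of its cell cycle candidates. From its qRT-PCR of these candidates after EIF5A2 knockdown, it named E2F1, CDC20 and PLK1 as changed over 2-fold. YWHAH was not among those named, and its text gives no qRT-PCR value for YWHAH. In bulk RNA, fewer cells that transcribe a gene and less RNA per cell cannot be told apart, and this holds for each result given here.

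YWHAG, the gene of 14-3-3 gamma, was the 1 member called higher. Its identifier is ENSG00000170027, and its 2 exons are on chromosome 7, between bases 76326794 and 76359031 (minus strand). In the NC group YWHAG stood at 113, 112 and 122 CPM, close to the level of YWHAH, and in the si-EIF5A2 group at 221, 220 and 207 CPM. Every si-EIF5A2 library lay well above every NC library. Mean levels were 116 ± 5.53 CPM and 216 ± 7.66 CPM (SD, n = 3), and the log2 fold change was 0.90 ± 0.07 (SE) with a 95% interval from 0.73 to 1.06 and an adjusted p of 5.83e-05 in edgeR's test. The 16 alternative fits all called YWHAG, and the log2 fold change stayed between 0.87 and 0.93 when 1 library was left out. It did not reach the 2-fold limit of the study's methods, under which YWHAH alone was called among the members beside 14.6% of all genes tested, and with no limit on the fold change YWHAG and YWHAH were the members called, beside 36.9% of all genes.

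**Figure D1:**
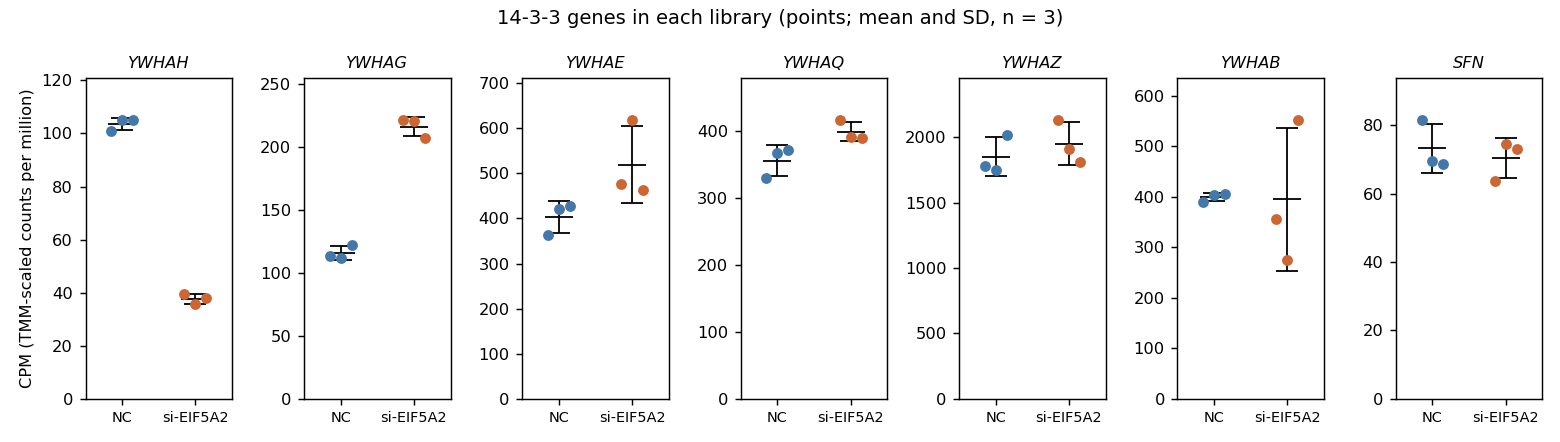
Level of each 14-3-3 gene in CPM (linear axes from 0, each panel with its own scale) in the 3 NC and 3 si-EIF5A2 libraries. Points are libraries, and the lines are the mean and SD. YWHAH falls from 104 to 37.8 CPM and YWHAG rises from 116 to 216 CPM with tight replicates, whereas the YWHAB points of the knockdown group run from 276 to 552 CPM.

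YWHAG and YWHAH, which changed in opposite directions, have the closest pair of coding sequences in the family. Over the aligned coding sequences of GENCODE release 29, they shared 78.9% of their bases, and the 21 pairs of members ranged from 61.9% to 78.9%. The longest stretch identical between any members was 39 bases, also in this pair, which is shorter than a sequencing read. The first 30 bases of each coding sequence (GRCh38, 5′ to 3′ on the coding strand) are shown to compare both genes, with the 7 bases that differ in capitals. YWHAG lies at chr7:76358779-76358808 on the minus strand and YWHAH at chr22:31944734-31944763 on the plus strand.
YWHAG: atggTggaccgCgagcaActgGtgcagAAA
YWHAH: atggGggaccgGgagcaGctgCtgcagCGG

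The start regions of the genes were read from RefSeq promoter windows (GRCh38.p14, 250 bases before to 50 after the start), which held 6 of the 7 members. Motifs were searched on both strands. YWHAH was the only one of these 6 with the cAMP response element TGACGTCA, from base -169 to -162, a match that 1.848% of the 35116 windows in the table hold. The GC box GGGCGG was found at 4 places each in YWHAG, YWHAB and YWHAQ, at 3 in YWHAH and at 1 or 2 in the others, and 44.954% of all windows hold at least 1. The CCAAT box (letters CCAAT, in 34.614% of windows) was matched in YWHAB, YWHAQ and SFN and in neither YWHAG nor YWHAH. None of these 6 matched the cell cycle motif CHR (TTTGAA or TTCGAA, in 16.352% of windows) or the SRF CArG box (by name, 1.293%). Among the 6, the E2F motif (by name, 3.315%) was matched in YWHAB alone, and TATAAA (11.53%) in YWHAH alone, on the strand opposite to the gene. The windows of YWHAH and YWHAG had 73.7% and 73.3% G and C bases, and those of the others 63.7% to 70.7%. These matches describe letters and no binding was measured. The stretches with the YWHAH element (chr22:31944355-31944384, plus strand) and with 1 of the YWHAG boxes (chr7:76359049-76359078, minus strand) are printed with the motif in capitals, to show what these start regions look like in the called members.
YWHAH: tttatagtaggTGACGTCAccttgaaatag
YWHAG: ttgcggacgggtGGGCGGggcctgccttcg

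The ratio of both members was read within each library, where scaling plays no part. Both were picked as the members called in opposite directions in these same libraries, so their ratio is no separate support. The log2 ratio of YWHAG to YWHAH counts was 0.16 ± 0.06 (SD, n = 3) in the NC group and 2.52 ± 0.09 in the si-EIF5A2 group. The ratio rose by 2.36 on the log2 scale, and its values did not overlap between groups. Such ratios did not overlap for 12 of the 21 pairs of members. An exact 2-sided permutation test gave p = 0.1, the smallest p that 3 against 3 libraries allow.

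YWHAE, the gene of 14-3-3 epsilon (ENSG00000108953; chromosome 17, bases 1344272 to 1400378, minus strand), missed the threshold. NC levels of YWHAE were 363, 420 and 428 CPM and knockdown levels 477, 618 and 463 CPM. Every si-EIF5A2 library was above every NC library, and si-EIF5A2 replicate 2 stood well above the others. The log2 fold change was 0.36 ± 0.13 (SE) with a 95% interval from 0.07 to 0.65 and an adjusted p of 0.0551 in edgeR's test. The log2 fold change was 0.22 without si-EIF5A2 replicate 2, and between 0.29 and 0.43 without any other single library. Its adjusted p ranged from 0.0377 (DESeq2) to 0.164 over the alternatives, and its fold change of 1.29 was under the limit of 1.5 in the main fit. In edgeR's test the adjusted p was also under 0.05 with library size only (0.0435) and with at least 10 counts in every library (0.0486).

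YWHAQ, the gene of 14-3-3 theta (ENSG00000134308; chromosome 2, bases 9583972 to 9631014, minus strand), which was first described in T cells, stood at 329, 367 and 371 CPM in the control group and at 416, 391 and 390 CPM after knockdown. Here too the groups did not overlap, but the distance was small. YWHAQ had a log2 fold change of 0.17 ± 0.07 (SE), a 95% interval from -0.01 to 0.34 and an adjusted p of 0.124 in edgeR's test. Together with YWHAH, YWHAG and YWHAE, 4 of the 7 members had groups that did not overlap, as had 51.2% of all genes tested.

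YWHAZ, the gene of 14-3-3 zeta (ENSG00000164924) on chromosome 8, a survival factor often raised in tumors, was the most abundant member. Its NC levels were 1780, 1750 and 2020 CPM and its si-EIF5A2 levels 2130, 1910 and 1810 CPM. The groups overlapped. The log2 fold change of 0.08 ± 0.09 (SE) had a 95% interval from -0.13 to 0.28 and an adjusted p of 0.546 in edgeR's test, so the interval leaves out changes of the size seen for YWHAG.

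YWHAB, the gene of 14-3-3 beta (ENSG00000166913; chromosome 20, bases 44885676 to 44908532, plus strand), a partner of RAF kinases, had nearly equal means but not equal spread. NC libraries held 390, 404 and 406 CPM and si-EIF5A2 libraries 357, 276 and 552 CPM. Knockdown replicates 1 and 2 lay below all NC libraries and replicate 3 lay above them. The SD was 8.91 CPM in the NC group and 142 CPM in the knockdown group, around means of 400 and 395 CPM. For YWHAB the log2 fold change was -0.02 ± 0.25 (SE) with an adjusted p of 0.968 in edgeR's test, and the 95% interval from -0.62 to 0.59 was the widest of the family. Without si-EIF5A2 replicate 3 it was -0.34 and without replicate 2 it was 0.18, and no alternative brought the adjusted p under 0.076. What sets replicate 3 apart at this gene was not tested.

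SFN, the gene of 14-3-3 sigma, is the family member of epithelial cells and halts the cell cycle before mitosis. Its identifier is ENSG00000175793, and it is a single exon of 1320 bases on chromosome 1 (bases 26863138 to 26864457, plus strand). The levels of SFN were 81.5, 69.7 and 68.7 CPM with the control siRNA and 63.8, 74.5 and 73.2 CPM after knockdown. The groups overlapped, with the highest value in NC replicate 1 and the lowest in si-EIF5A2 replicate 1. The log2 fold change of SFN was -0.06 ± 0.10 (SE), with a 95% interval from -0.29 to 0.18 and an adjusted p of 0.705 in edgeR's test. It was 0.02 when NC replicate 1 was left out and 0.00 when si-EIF5A2 replicate 1 was. On the linear scale the interval runs from 0.816 to 1.13 times the control level.

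**Figure D2:**
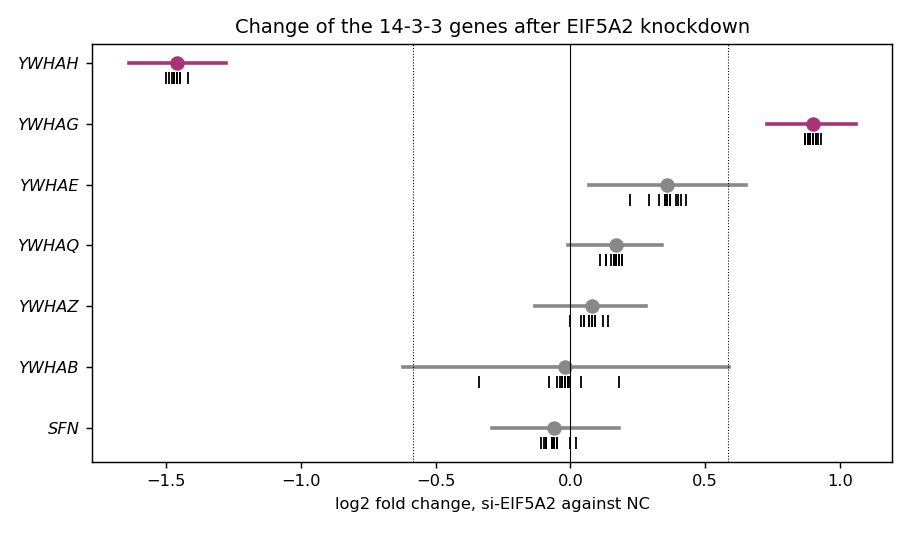
Log2 fold change of each 14-3-3 gene, si-EIF5A2 against NC (points), with its 95% interval (bars). Ticks below each bar are the values in the alternative fits, dotted lines mark a fold change of 1.5 in either direction, and purple marks called genes. YWHAH at -1.46 and YWHAG at 0.90 stand outside the dotted lines in every fit, and the ticks of YWHAB spread from -0.34 to 0.18.

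Across the family, 2 of 7 members were called, 1 in each direction, which is 28.6% beside 24.6% of all genes tested. The median log2 fold change was 0.08 for the members and -0.01 for all genes tested. The share of called members was close to that of the transcriptome.

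Levels of different members were compared per kilobase of exon. On that scale the NC group held 216 ± 17.1 CPM per kb of YWHAZ, 131 ± 8.44 of YWHAQ, 105 ± 9.14 of YWHAE, 55.6 ± 5.40 of SFN, 50.4 ± 1.12 of YWHAB, 42.4 ± 0.916 of YWHAH and 30.9 ± 1.47 of YWHAG (SD, n = 3). No neighbours in this order overlapped between their libraries. All 7 were well expressed, from the percentile 91.2 (YWHAG) to 98.7 (YWHAZ) among 16176 genes with a length. After knockdown YWHAG, with 57.6 ± 2.04 CPM per kb, moved from the last place to the fourth, where its libraries overlapped those of SFN at 53.4 ± 4.43, and YWHAH became the last at 15.4 ± 0.768. The knockdown libraries of YWHAB, at 34.8 to 69.6 CPM per kb, enclosed those of both YWHAG and SFN, so the places of these 3 genes were not separated. The libraries of YWHAQ and YWHAE also overlapped in the knockdown group. The order depends on the length used. With the longest coding transcript of each gene, YWHAE came before YWHAQ and YWHAB before YWHAH and SFN in the NC group, while YWHAG stayed last before knockdown and YWHAH after it.

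The make-up of the family is the share of each member in the summed level per kb. YWHAH made up 6.81%, 6.86% and 6.48% of the family under the control siRNA and 2.32%, 2.11% and 2.30% after knockdown, a drop of the mean from 6.71% ± 0.205 to 2.25% ± 0.117 (SD, n = 3). The share of YWHAG went from 4.97%, 4.79% and 4.92% to 8.49%, 8.47% and 8.23%, a gain of 3.50 percentage points. YWHAE gained 3.04 points, from 16.6% to 19.7%, but only 1.26 points without si-EIF5A2 replicate 2. For each of these 3 genes the groups did not overlap. The exact 2-sided permutation test gave p = 0.1, the smallest p possible here, and 0.233 after adjustment over the 7 members. The shares of YWHAZ (34.2% and 33.2%), YWHAQ (20.8% and 21.4%), SFN (8.83% and 7.78%) and YWHAB (7.99% and 7.29%) overlapped between the groups. Summed over the family, the level was 3300 ± 190 CPM in the NC group and 3590 ± 103 CPM after knockdown (SD, n = 3), and the family held 0.311% to 0.375% of all counts of a library. The mean family total after knockdown was 109% of the control mean.

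**Figure D3:**
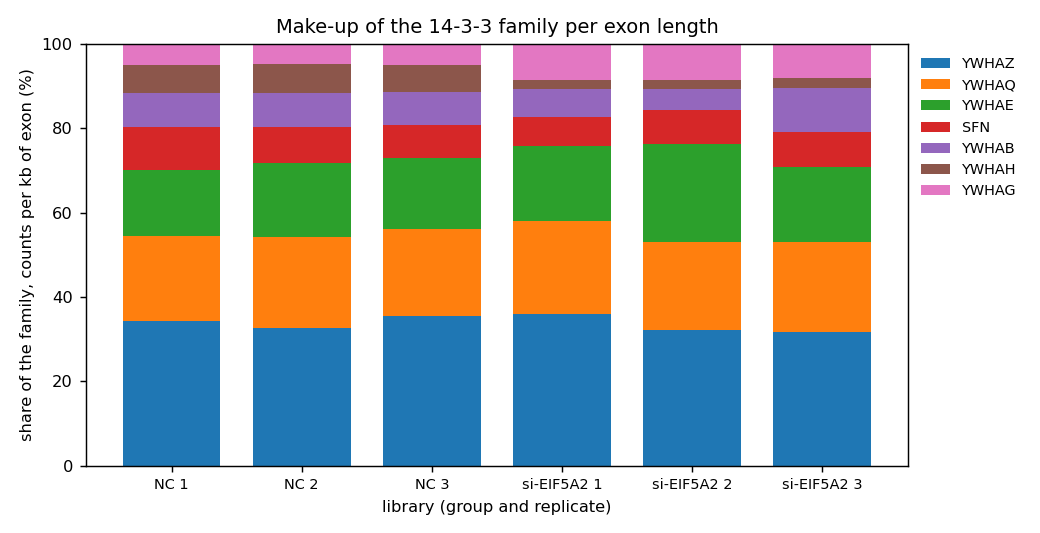
Share of each member in the 14-3-3 family per library, in percent of summed counts per kb of exon, as stacked bars from 0 to 100. The YWHAH band narrows from 6.71% to 2.25% on average and the YWHAG band widens from 4.90% to 8.40%, with the YWHAE band largest in si-EIF5A2 replicate 2 (23.2%).

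Pseudogenes can draw reads from their parent genes. The table held 25 pseudogenes named after members, of which 11 had any counts. They belong to YWHAZ, YWHAE, YWHAQ and YWHAB, and none to YWHAG, YWHAH or SFN. Their counts came to 0.774% of those of YWHAZ, 0.965% of those of YWHAE and less for the others. The test could be run on 5 pseudogenes, with log2 fold changes from -0.03 (YWHAZP2) to 0.44 (YWHAZP10), and none was called. Some are hard to tell from their parent by short reads, with identical stretches of up to 221 bases in YWHAZP3. Adding the pseudogene counts to the members changed no call. YWHAH shares 105 exon bases, 4.3% of its exons, with ENSG00000285404 on the same strand, which had 0 counts in all 6 libraries, and 22 bases with the antisense gene YWHAH-AS1, which had 4 counts in NC replicate 1 and 0 elsewhere. The other members share no exon bases with another gene.

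The genes whose level followed the called members most closely were found by Pearson's r of log2 CPM over the 6 libraries, among the 8843 genes that averaged 10 CPM or more. For YWHAH these were KIF23, a kinesin of cytokinesis (r = 0.9997), and UBE2T, a ubiquitin-conjugating enzyme of the Fanconi anemia pathway (r = 0.9996). KIF23 went from 30.4, 34.3 and 37.3 CPM to 1.98, 1.59 and 1.77 CPM, and UBE2T from 24.1, 26.9 and 26.5 CPM to 4.99, 4.21 and 4.34 CPM. For YWHAG they were ISCA1, a factor of iron-sulfur cluster assembly (r = 0.9997), and CD163L1, a scavenger receptor (r = 0.9993). ISCA1 went from 17.1, 16.5 and 19.0 CPM to 50.9, 49.1 and 44.5 CPM. With 2 groups of libraries such values describe mostly the step between the groups, and no p is given.

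Proteins that 14-3-3 dimers hold were taken as 4 lists of clients. In the group of cell cycle clients, 6 of 8 fell and none rose, while 13.6% of all genes tested were called lower. The median log2 fold change of this list was -1.19. KIF23, whose product is held by 14-3-3 until it assembles at the midzone, had a log2 fold change of -4.25 ± 0.15 (SE; adjusted p = 4.44e-06 in edgeR's test). CDC25C, the phosphatase that starts mitosis, fell from 24.8 ± 3.42 to 2.64 ± 0.832 CPM (SD, n = 3), a log2 fold change of -3.23 ± 0.25 (adjusted p = 7.02e-05, edgeR). The other 4 that fell, chosen for mention after their values were seen, were CDC25B, CDC25A, WEE1 and MDM4, with log2 fold changes from -2.52 to -0.65. CDKN1B, the CDK inhibitor p27, had -0.05 and the deubiquitinase USP8 0.36, and neither was called. MDM4 lost its call without si-EIF5A2 replicate 2.

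Among 21 clients of growth signaling, 1 rose and 1 fell (9.52% called, beside 24.6% of all genes tested), and the median log2 fold change was -0.03. BRAF, the RAF kinase that 14-3-3 dimers lock in its inactive state, rose from 15.3 ± 0.771 to 24.5 ± 4.08 CPM (SD, n = 3), a log2 fold change of 0.68 ± 0.14 (SE; adjusted p = 0.00628, edgeR). RIN1, a RAS effector, fell from 57.0 ± 4.20 to 33.2 ± 1.86 CPM (SD, n = 3), a log2 fold change of -0.78. Without si-EIF5A2 replicate 1 the number of rises was 0, and without NC replicate 3 the number of falls was 2.

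Among the clients that act on transcription and RNA, 2 of 21 tested rose and 5 fell, with a median log2 fold change of 0.05. The share called was 33.3%, beside 24.6% of all genes tested. HDAC9, a class IIa histone deacetylase kept in the cytoplasm by 14-3-3, rose from 6.60 ± 1.10 to 14.4 ± 2.88 CPM, and ZFP36L1, an mRNA decay factor, from 271 ± 22.7 to 425 ± 25.9 CPM (SD, n = 3). CRTC1, a coactivator of CREB, fell from 12.2 ± 1.80 to 5.76 ± 1.14 CPM and FOXO1, the forkhead factor that AKT sends to 14-3-3, from 12.7 ± 1.51 to 6.27 ± 0.644 CPM. Their log2 fold changes were 1.13, 0.65, -1.08 and -1.02, and each was called in every fit without 1 library.

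Cytoskeletal, motor and channel clients gave 1 rise and 4 falls in 16 tested (31.2% called). Among all genes tested 24.6% were called, 13.6% lower and 11.1% higher. On the log2 scale these clients had a median change of -0.10. KIF1C, a kinesin, rose from 148 ± 8.32 to 261 ± 16.7 CPM (SD, n = 3; log2 fold change 0.82). ADAM22, a neuronal receptor carried to the surface with 14-3-3, fell from 5.28 ± 0.896 to 2.25 ± 0.542 CPM (log2 fold change -1.23). KCNK3, a potassium channel, went from 2.38, 2.81 and 1.28 CPM to 0.861, 0.862 and 0.917 CPM. Its log2 fold change of -1.30 ± 0.35 (SE; adjusted p = 0.0203, edgeR) lost its call in 5 of 16 alternatives, with an adjusted p of up to 0.0862. These left out NC replicate 1 or 2 or si-EIF5A2 replicate 1 or 2, or took the replicate number as a block. The actin-severing protein CFL1, named after its value was seen, is the most abundant gene of the list that fell, from 962 ± 68.6 to 418 ± 76.0 CPM. The falls numbered 2 without NC replicate 1, and the rises 2 without NC replicate 2.

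Kinases that write 14-3-3 sites were called in both directions, 6 of 31 higher and 6 lower, with a median log2 fold change of -0.08. That is 38.7% called, beside 24.6% of all genes tested (11.1% higher and 13.6% lower). SGK1, a kinase of the AKT type induced by serum and glucocorticoids, went from 33.0, 44.9 and 35.7 CPM to 93.7, 79.2 and 73.0 CPM, and the Hippo kinase LATS2 from 49.6, 51.8 and 54.7 CPM to 114, 94.0 and 102 CPM. The checkpoint kinases CHEK2 and CHEK1, which write the 14-3-3 sites of CDC25 phosphatases, fell from 13.1 ± 2.77 to 3.81 ± 0.867 CPM and from 13.3 ± 2.70 to 4.50 ± 0.437 CPM (SD, n = 3). Their log2 fold changes were 1.11 for SGK1, 0.99 for LATS2, -1.78 for CHEK2 and -1.56 for CHEK1. Of the 4 kinases that phosphorylate 14-3-3 proteins themselves, PRKCD (protein kinase C delta) rose from 68.3 ± 2.16 to 106 ± 4.15 CPM and MAPK8 (JNK1) from 33.9 ± 4.68 to 52.3 ± 2.91 CPM. Both had a log2 fold change of 0.63, and MAPK8 lost its call when either NC replicate 1 or si-EIF5A2 replicate 1 was left out, leaving 1 rise. MAPK9 (JNK2) and CSNK1A1 (casein kinase 1 alpha) had log2 fold changes of -0.18 and 0.05 and were not called.

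The enzymes through which the family was first known as an activator, TH, TPH1, TPH2 and AANAT of the catecholamine, serotonin and melatonin pathways, could not be tested. TH and AANAT had 0 counts in all libraries, which allows up to 0.247 CPM in the shallowest library and covers counting error only, and the highest level of TPH1 or TPH2 in any library was 0.153 CPM.

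**Figure D4:**
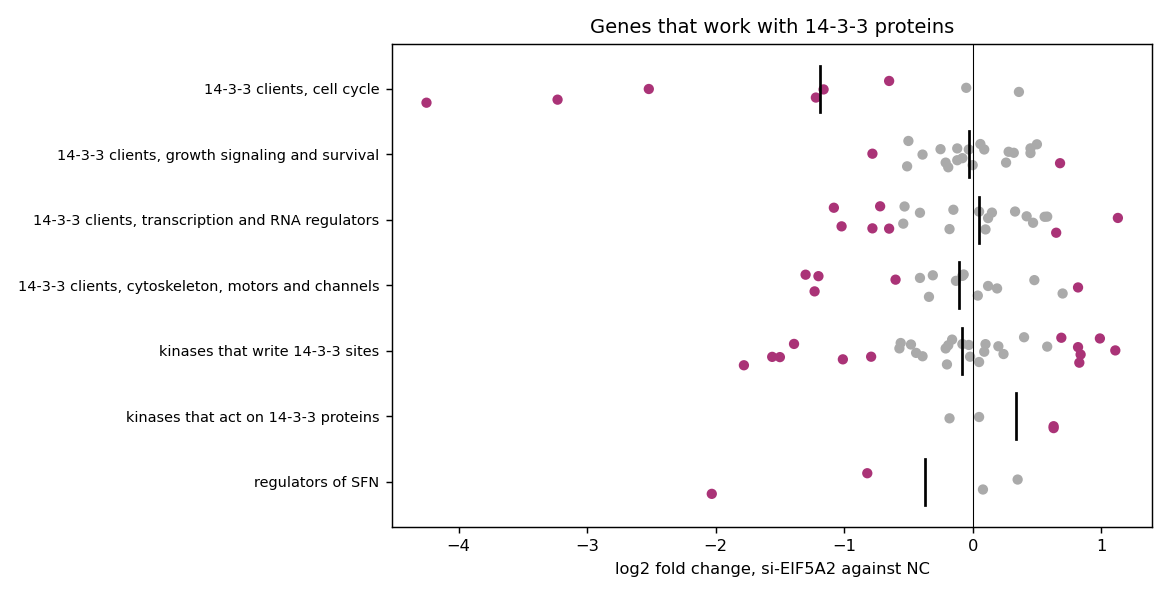
Log2 fold change, si-EIF5A2 against NC, of each tested gene that works with 14-3-3 proteins, by list. Purple points are called genes, grey points are not, and black bars are the median of each list. The cell cycle clients lie mostly to the left with a median of -1.19, and the growth signaling clients lie around 0 with a median of -0.03.

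A list of 6 genes known to regulate SFN was read beside it. Of the 4 that could be tested, 2 fell and none rose, while 13.6% of all genes tested were called lower. With 4 genes the list is too short to set its count apart from that share. SFN itself did not pass the test. BRCA1, a DNA repair factor known to induce SFN, fell from 9.18 ± 1.22 to 2.25 ± 0.820 CPM, and DNMT1, which maintains the DNA methylation that can silence SFN, from 74.6 ± 7.30 to 42.4 ± 2.91 CPM (SD, n = 3). TRIM25 and COP1, ubiquitin ligases that degrade the sigma protein, had log2 fold changes of 0.08 and 0.35 and were not called. TP63 (0.0837 CPM in the NC group) and TP73 (0 counts) were too low to test.

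Epithelial markers, the setting in which SFN is mostly expressed, were read too. Their summed level over 9 genes was 1506 to 1673 CPM in the NC group and 956 to 1168 CPM after knockdown. MUC16 was at 0. Of the 8 tested, KRT7, KRT8 and PAX8 were called lower (37.5% called, beside 24.6% of all genes tested). ERBB2, KRT18, EPCAM, KRT19 and CDH1 were not called, with log2 fold changes of -0.02, -0.08, -0.19, -0.39 and -0.78. The part of these markers in the level of SFN was not tested.

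Over all lists of partners and regulators, with each gene counted once, 12 of 105 tested genes rose and 24 fell, which is 34.3% called beside 24.6% of all genes tested. The median log2 fold change of these genes was -0.08.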

How the data were processed

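RNA-seq of 3 NC and 3 si-EIF5A2 libraries of SKOV3 cells was used, grouped by their labels. The authors made paired-end mRNA libraries and quantified them with StringTie and ballgown. The deposited values are estimated counts, whole numbers for each gene without normalization. The submitters' processing notes list Bowtie 0.12.2 and the mouse builds mm8 and mm9; the build and annotation behind the human counts are not given in the sources used here. StringTie shares fragments between overlapping transcripts, which makes overlapping genes less certain. Depth was 46900204 to 74142267 counts, and 0 columns were left without a sample.

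All 6 libraries entered 1 fit in edgeR 4.0.16 under R 4.3.3, with the group as its single term: filterByExpr, TMM, robust dispersion and quasi-likelihood tests, and Benjamini-Hochberg adjustment over 16208 genes. Standard errors are the log2 fold change over the square root of F. Shares and ratios were compared by exact permutation tests. The common biological coefficient of variation was 0.261. On simulated counts with 200 changed genes, the fit recovered 86% of them (96% of 4-fold and 76% of 2-fold changes), and 9.47% of its 190 calls among 15730 genes were false. Far more genes, 3992, were called in the data, so these shares need not hold there. Symbols matched 58472 identifiers, and lengths and positions came from GENCODE release 29 (58552 identifiers).

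The members and the lists of partners, written from textbook knowledge, were chosen with earlier results of these data known. Named genes are all members, their pseudogenes and exon neighbours, up to 2 called genes in each direction per list, all genes of lists of 7 or fewer, and the 2 genes most like each called member; exceptions are marked. A planned list and 1 gene of the other lists are not reported here. Alternatives were DESeq2 1.42.0, other normalizations, filters, thresholds, lengths and read assignments, a replicate block, and leaving out each library.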

Additional observations from a re-analysis of the deposited data

How the results depend on the processing

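Of the values that answer a comparison, for members and partner counts, 262 of those computed under an alternative kept their direction and their side of the threshold, 5 moved, 4 changed sign and 1 fell short of the threshold. Under the threshold of the methods (unadjusted p, fold change over 2), the log2 fold change of YWHAG (0.90) was no longer past the limit, 0 members and 2 partner genes were called higher, and 2370 genes were called in all against 3992. With no limit on the fold change, 23 partner genes were called higher, against 12, and 5974 genes were called in all. When each library was left out in turn, SFN ranged from -0.11 to 0.02 and YWHAB from -0.34 to 0.18 in log2 fold change, with SFN at 0.02 when NC replicate 1 was left out and 0.00 when si-EIF5A2 replicate 1 was, and YWHAB at 0.04 without si-EIF5A2 replicate 1 and 0.18 without replicate 2. Taking the longest coding transcript as the length, the shares of YWHAG and YWHAH moved by 2.32 and -3.91 percentage points in place of 3.50 and -4.47. No scaling moved the median of all genes by over 0.1. Replicate numbers did not pair the libraries (correlations of -0.024, 0.005 and -0.003 between same-numbered libraries). With the replicate number as a block, 3731 genes were called, the calls of the members did not change, KCNK3 lost its call, and YWHAE had an adjusted p of 0.0518 in edgeR's test. Counts in single lists moved by over 1.5 times in 19 cases. The causes were not tested. Depth did not limit the members, which had at least 1819 counts in each library.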
